A study of Mus musculus with 30 samples.

Results

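Krt5, Krt14, Krt15, Itga6, Itgb4 and Trp63 are genes of the basal layer of stratified and pseudostratified epithelia. They were taken as every probe set of the array that is annotated to exactly 1 gene with one of these symbols. This gave 1 probe set for each of the 6 genes, out of 8251 genes with such a probe set. The arrays profiled total RNA of microdissected olfactory epithelium, the part of the nasal lining that holds the odour-sensing neurons, on Affymetrix MG-U74Av2 arrays. The mice were 6 weeks old, and times were counted around the surgical removal of both olfactory bulbs (bilateral bulbectomy), to which the sensory axons project. By label they were either wild type or SR-A mutant, where SR-A is a scavenger receptor of macrophages and its gene is Msr1. Each genotype had 3 arrays at 0, 2, 8, 16 and 48 h, 30 arrays in 10 groups. The labels used here name neither the allele nor the strain, nor say whether the mice at 0 h had the surgery, so that the 0 h groups are called only by their time.

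Basal cells lie under the olfactory neurons and renew them. Horizontal basal cells are flat cells on the basement membrane that are known for the keratin pair of Krt5 and Krt14 and are largely quiescent until the epithelium is injured. Trp63 encodes p63, the transcription factor that holds them in that reserve state. Itga6 and Itgb4 encode the α6 and β4 integrin subunits, which pair in the hemidesmosome, the junction that anchors the keratin filaments of a basal cell to laminin in the basement membrane. Krt15 encodes another basal keratin. Only β4 is largely restricted to epithelium and nerve sheath, while α6 also pairs with β1 and is made by endothelial and Schwann cells.

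The array signal is a MAS5 value, a linear intensity that had been scaled to the same trimmed mean on every array. A signal at or below 113.7, the 25th percentile of all signals, was set to that floor before log2 was taken. A probe set was tested only if its signal was above 572, the median of all signals, on 3 or more arrays, and a gene is called near background here where its probe set fails that filter or has a median below 572. Differences are log2 differences of group means ± SE from a limma fit of all 30 arrays, n = 3 arrays per group, and each adjusted p is that of Benjamini and Hochberg over all 6968 probe sets in the test, with 0.05 as the threshold. The labels do not tie each array to a separate mouse, so a p-value here weighs a difference against array spread that could be partly technical. In RNA of whole tissue, fewer cells of a type and less RNA per cell cannot be told apart.

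Tissue identity and labels were checked first. The olfactory neuron genes Cnga2 and Gap43 exceeded 572 on 30 of 30 arrays and Omp on 29 of 30. Msr1, the gene named by the genotype label, was higher in the arrays labelled mutant: its brighter probe set ranged from 297.5 to 587.4 with a median of 444.5 there and from 32.6 to 295.1 with a median of 161.0 in the arrays labelled wild type. Which part of the gene the probes cover is not known here, so every genotype direction below is that of the libraries labelled wild type or SR-A mutant. The SR-A mutant 2 h arrays stood apart in the Gapdh control of RNA quality, replicate 2 the least. Their log2 ratio of the 3' to the 5' Gapdh control was 5.59, 0.15 and 1.27 in replicates 1 to 3, against -0.31 to -0.13 on the other 27 arrays. For the Actb control it was 2.27, 1.02 and 0.43, against 0.45 to 1.11, so only replicate 1 lay above the others there.

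The 3 keratins were near background in all 10 groups. Krt14, whose protein pairs with keratin 5, lay at or below the floor on 30 of 30 arrays, with signals from 14.5 to 106.2 and a median of 39.0. Krt15 also lay at or below the floor on 30 of 30 arrays, from 4.0 to 24.6 with a median of 8.7. Krt5 lay at or below it on 28 of 30 arrays, from 27.7 to 194.5 with a median of 47.8. Its 2 signals above the floor both came at 16 h, 192.6 in wild type replicate 1 and 194.5 in SR-A mutant replicate 2, but their group mates gave 63.2 and 108.2 and 59.0 and 35.2. No keratin of the 3 passed the filter, so none has a test, and differences between their groups are below what these probe sets can show. Of all probe sets other than controls, 15.1% had a median below that of Krt5, 13.2% below that of Krt14 and 2.49% below that of Krt15. A single dim probe set does not show that a transcript is missing.

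Itga6, Itgb4 and Trp63 were measured on every array above the floor. Itga6 signals ran from 284.5 to 1085.2 with a median of 624.2, and 18 of 30 arrays exceeded 572. Of these, 13 were wild type and 5 SR-A mutant, with medians of 673.3 and 525.9. The SR-A mutant median thus lay below 572. In SR-A mutant 3 of 3 arrays exceeded 572 at 2 h, but 0 of 3 at 16 h and 0 of 3 at 48 h. Itgb4 ran from 329.0 to 1392.7 with a median of 743.5 and exceeded 572 on 23 arrays. Trp63 ran from 534.6 to 992.7 around a median of 754.8, with 26 arrays above 572. Their medians lay above those of 51.5%, 54.9% and 55.2% of probe sets. The 3 tested genes thus sat near the middle of the array while the 3 keratins sat at its dim end. The plot of all 6 genes by group shows this split.

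**Figure D1:**
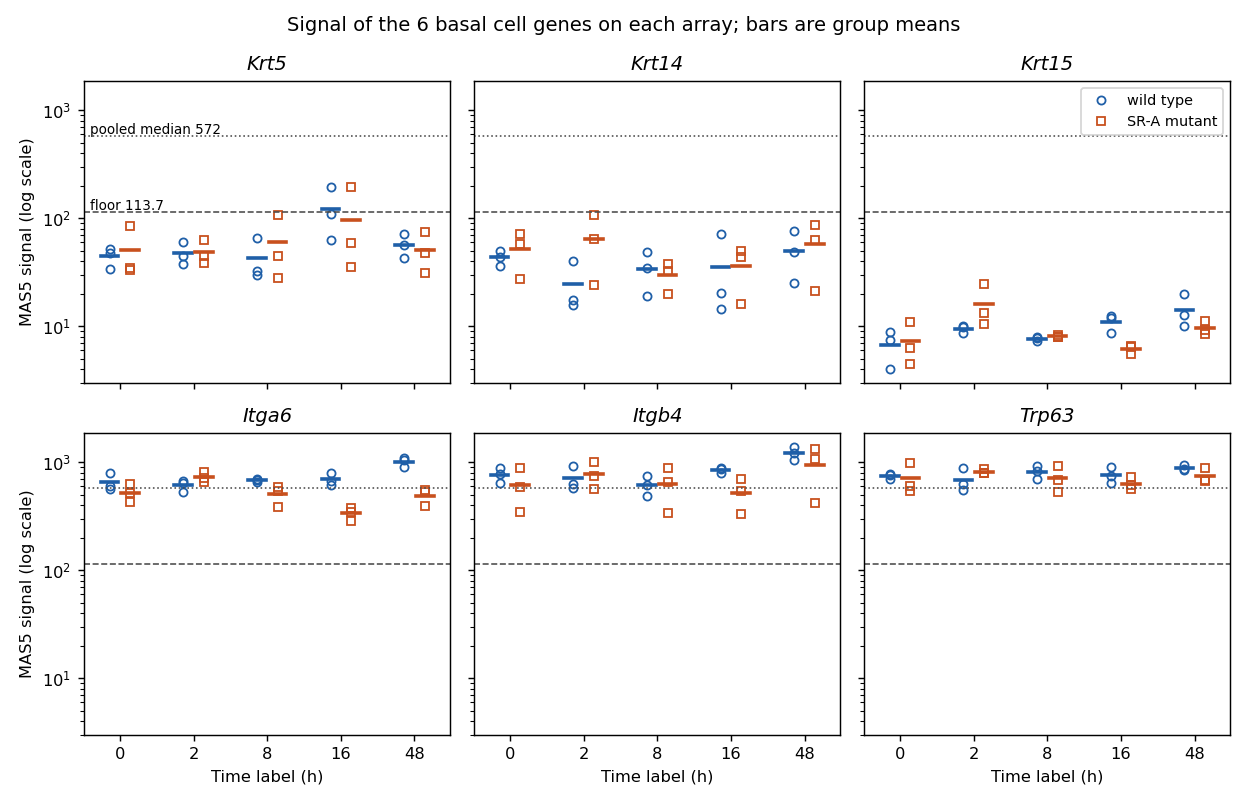
MAS5 signal (log axis) of the 6 genes on each of the 30 arrays against the time label in hours, with wild type as circles and SR-A mutant as squares, 3 arrays per group, and short bars at group means. The dashed line is the floor of 113.7 and the dotted line the pooled median of 572; the keratins of the upper row lie near or below the floor, and the wild type 48 h arrays of Itga6 (904.8 to 1085.2) lie above all other Itga6 arrays.

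Itga6, the α6 integrin subunit, was the 1 gene of the 6 with calls: it rose in wild type at 48 h, fell in SR-A mutant at 16 h, and was lower in SR-A mutant than in wild type at 16 h, at 48 h and over all times. In wild type its signals were 571.6, 606.9 and 803.0 at 0 h, 532.6, 636.7 and 673.3 at 2 h, 688.2, 650.3 and 697.9 at 8 h, 619.1, 801.2 and 670.6 at 16 h, and 904.8, 1085.2 and 1046.9 at 48 h. The groups from 0 to 16 h overlapped, and all 3 arrays at 48 h lay above all 12 earlier ones. In SR-A mutant the signals were 518.7, 426.8 and 629.2 at 0 h, 810.0, 716.4 and 657.6 at 2 h, 389.1, 547.3 and 586.9 at 8 h, 378.0, 284.5 and 344.8 at 16 h, and 525.9, 395.5 and 555.6 at 48 h. Here the arrays at 2 h were the highest and those at 16 h the lowest, and the groups at 0, 8 and 48 h overlapped.

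Against 0 h, Itga6 in wild type at 48 h rose by 0.63 ± 0.17, 1.55-fold (mean signals 1012 ± 95.05 and 660.5 ± 124.7, SD, n = 3; limma adjusted p = 0.0155). At this time 15.0% of all tested probe sets were called, and 7.88% of all tested probe sets were called upwards. For 18.3% the 48 h arrays all lay above the 0 h arrays. In SR-A mutant at 16 h it fell by 0.64 ± 0.17 on the log2 scale, to 335.8 ± 47.4 from 524.9 ± 101.3 (SD, n = 3; limma adjusted p = 0.0399), in a comparison that called 3.65% of probe sets, 1.82% downwards. By 48 h in SR-A mutant the difference from 0 h was -0.09 ± 0.17 (adjusted p = 0.816, 95% interval -0.45 to 0.27; 9.47% of probe sets called). The SR-A mutant rise at 2 h, 0.48 ± 0.17, missed the threshold with adjusted p = 0.0541, where 17.7% of probe sets were called, and these are the arrays with the high Gapdh ratios. It passed with quantile normalization (0.56, limma adjusted p = 0.036) and with the replicate number as a block (0.48, adjusted p = 0.0478). The shares of probe sets called in these settings are not given here. All 3 SR-A mutant 2 h arrays lay above the 0 h arrays, as for 16.5% of probe sets, and all 3 at 16 h below them, as for 12.0%. The differences from 0 h in wild type at 2, 8 and 16 h were -0.10, 0.06 and 0.09, and that in SR-A mutant at 8 h was -0.05; none passed the threshold, in comparisons that called 0.574%, 0.201%, 6.53% and 1.91% of probe sets.

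Both of the Itga6 changes over time depended on single arrays. The wild type call at 48 h was lost without wild type 0 h replicate 1 (0.53, limma adjusted p = 0.0806), 0 h replicate 2 (0.57, 0.0632) or 48 h replicate 2 (0.58, 0.0597). The SR-A mutant call at 16 h was lost without SR-A mutant 0 h replicate 1 (-0.64, 0.0985), 0 h replicate 3 (-0.50, 0.218), 16 h replicate 2 (-0.52, 0.196) or 16 h replicate 3 (-0.66, 0.0831), and also with no filter (0.0701), with quantile normalization (0.0565) and in a fit of its own 6 arrays (0.111).

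Between the genotypes, Itga6 differed most at 16 and 48 h. At 16 h it was 2.08-fold lower in SR-A mutant, a difference of -1.06 ± 0.17 (335.8 against 697.0; limma adjusted p = 0.00107; 8.42% of probe sets called, 5.11% lower). At 48 h it was 2.07-fold lower, -1.05 ± 0.17 (492.3 against 1012; limma adjusted p = 2.35e-04; 16.3% called, 9.07% lower). At both times all 3 SR-A mutant arrays lay below all 3 wild type arrays, as 19.1% and 16.0% of probe sets did. These 2 comparisons share no array. Without any single array the 16 h difference stayed between -1.15 and -0.94, with adjusted p up to 0.0104, and the 48 h difference between -1.15 and -0.90, with adjusted p up to 0.00275.

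At the other times the genotype difference of Itga6 missed the threshold. It was -0.33 ± 0.17 at 0 h (adjusted p = 0.182, 95% interval -0.69 to 0.02), where 18.3% of probe sets were called. At 2 h it was 0.25 ± 0.17 (adjusted p = 0.421; 9.03% called), the 1 time with the higher mean in SR-A mutant. At 8 h it was -0.44 ± 0.17 (adjusted p = 0.144; 2.94% called), with arrays that did not overlap, as for 14.5% of probe sets in that direction. Over all times Itga6 was lower in SR-A mutant by 0.53 ± 0.08, a 1.44-fold lower level (517.8 against 732.6, n = 15 arrays each; limma adjusted p = 2.30e-05). In that comparison 35.7% of all tested probe sets were called, and 21.8% of all tested probe sets were called lower. Without the SR-A mutant 2 h arrays the Itga6 difference over all times was -0.72 ± 0.09 (adjusted p = 2.24e-06; 42.6% called).

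Whether the time course of Itga6 differed between genotypes was tested with a moderated F over the 4 differences of changes. It gave adjusted p = 0.00319, where 14.7% of probe sets were called. Without the SR-A mutant 2 h arrays it gave 0.0875, past the threshold no longer, with 5.96% of probe sets called. The single differences of change missed the threshold at each time: 0.58 ± 0.24 at 2 h (adjusted p = 0.125; 10.6% called), -0.11 ± 0.24 at 8 h (0.944; 0.0% called), -0.72 ± 0.24 at 16 h (0.149; 0.115% called) and -0.72 ± 0.24 at 48 h (0.117; 2.86% called). The lower Itga6 in SR-A mutant at 16 and 48 h is therefore called as a level, and not as a change from 0 h that differs between genotypes.

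Ordered by mean signal, the Itga6 groups ran from wild type 48 h (1012) through SR-A mutant 2 h (728.0), wild type 16 h (697.0), 8 h (678.8), 0 h (660.5) and 2 h (614.2) to SR-A mutant 0 h (524.9), 8 h (507.8), 48 h (492.3) and 16 h (335.8). Neighbours in this order overlapped in their arrays except at its ends, where wild type 48 h stood above SR-A mutant 2 h and SR-A mutant 16 h below SR-A mutant 48 h. All wild type groups lay above all SR-A mutant groups in mean, apart from SR-A mutant at 2 h.

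**Figure D2:**
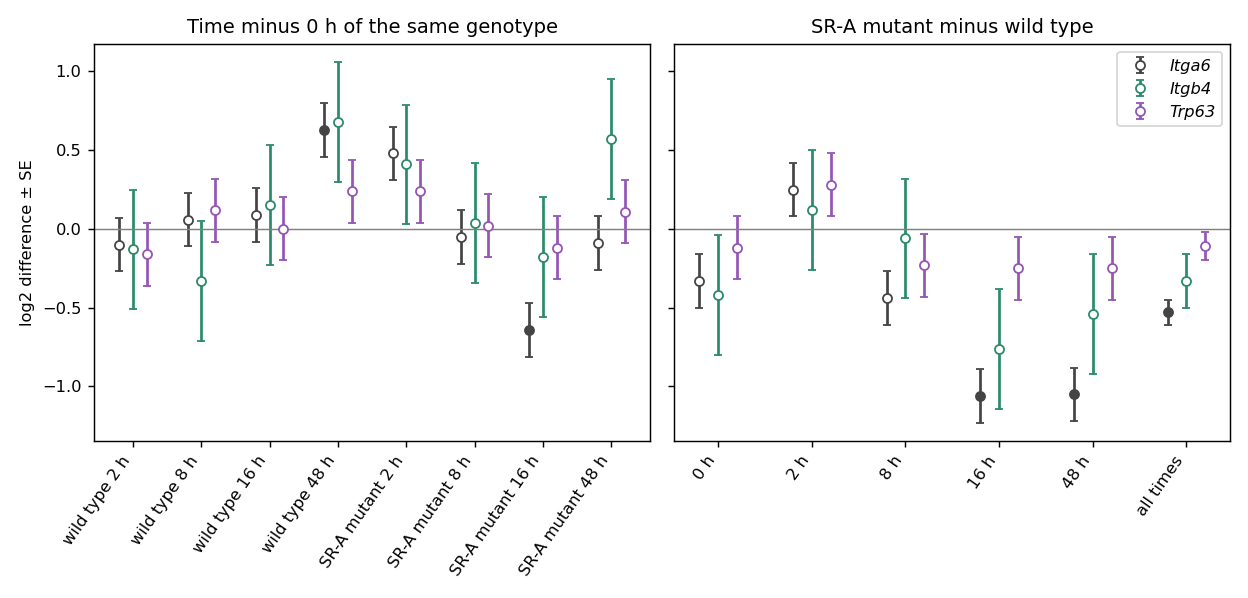
Log2 differences ± SE from the limma fit for Itga6, Itgb4 and Trp63: each time minus 0 h of the same genotype on the left, SR-A mutant minus wild type at each time and over all times on the right. Filled points have an adjusted p under 0.05 and open points do not; all 5 filled points are Itga6, from 0.63 in wild type at 48 h to -1.06 between genotypes at 16 h.

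Itgb4, the β4 partner of α6, was not called in any comparison, and its smallest unadjusted p was 0.0601. Wild type signals were 783.1, 637.1 and 878.9 at 0 h, 625.1, 928.5 and 577.5 at 2 h, 610.5, 485.9 and 743.9 at 8 h, 798.1, 876.2 and 863.2 at 16 h, and 1046.2, 1232.6 and 1392.7 at 48 h. As for Itga6, the 3 wild type arrays at 48 h lay above the 12 earlier ones. Against 0 h alone, 18.3% of probe sets had wild type 48 h arrays that all lay higher. SR-A mutant signals were 592.4, 343.8 and 893.1 at 0 h, 565.5, 1015.8 and 743.1 at 2 h, 341.8, 877.2 and 656.1 at 8 h, 701.9, 539.0 and 329.0 at 16 h, and 418.2, 1322.4 and 1066.9 at 48 h. All SR-A mutant groups overlapped one another, and their replicates spread more widely than those of wild type, with an SD of 186.9 against 41.85 at 16 h and 466.1 against 173.4 at 48 h.

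In wild type at 48 h the Itgb4 difference from 0 h was 0.68 ± 0.38, 1.60-fold (1224 ± 173.4 and 766.4 ± 121.8, SD, n = 3), with adjusted p = 0.257 and a 95% interval of -0.12 to 1.47. The fit takes 1 spread per probe set from all 10 groups. In a fit of the 6 wild type arrays alone it was 0.68 ± 0.16 with adjusted p = 0.0333. In SR-A mutant at 48 h it was 0.57 ± 0.38 (adjusted p = 0.391). Between genotypes the difference at 16 h was -0.76 ± 0.38 (limma adjusted p = 0.238). The SR-A mutant arrays then all lay below the wild type ones, as for 19.1% of probe sets. At 48 h the difference was -0.54 ± 0.38 (0.382, 95% interval -1.33 to 0.26), and over all times -0.33 ± 0.17 (0.137). By mean signal the groups ran from wild type 48 h (1224) and SR-A mutant 48 h (935.8 ± 466.1) down to SR-A mutant 0 h (609.8) and 16 h (523.3), and every pair of neighbours overlapped.

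Trp63, the basal cell transcription factor, had the narrowest range of the 3 and was not called either; its smallest unadjusted p was 0.177. In wild type its signals were 770.0, 778.6 and 705.0 at 0 h, 625.4, 877.1 and 553.3 at 2 h, 833.7, 929.2 and 698.6 at 8 h, 739.5, 896.4 and 642.6 at 16 h, and 937.7, 872.3 and 846.4 at 48 h. In SR-A mutant they were 546.8, 603.0 and 992.7 at 0 h, 792.2, 857.7 and 799.6 at 2 h, 534.6, 916.0 and 692.0 at 8 h, 723.4, 561.0 and 622.7 at 16 h, and 684.2, 675.4 and 892.9 at 48 h. Among the comparisons with 0 h and between genotypes at one time, only wild type at 48 h had arrays that did not overlap, as for 18.3% of probe sets in that direction. The difference from 0 h was 0.24 ± 0.20 (limma adjusted p = 0.484, 95% interval -0.19 to 0.66). Over all times the genotypes differed by -0.11 ± 0.09 (adjusted p = 0.349, 95% interval -0.30 to 0.08). Its 95% intervals against 0 h and between genotypes at single times reached from -0.67 at the lowest, in both genotype comparisons at 16 and 48 h, to 0.70 at the highest, between genotypes at 2 h. Group means ran from 885.5 in wild type at 48 h to 635.7 in SR-A mutant at 16 h, with overlap between all neighbours.

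The same group was highest for all 3 genes, wild type at 48 h, and the same group lowest, SR-A mutant at 16 h. Over the 27 arrays outside SR-A mutant at 2 h, the log2 levels of Itga6 and Itgb4 had Pearson's r of 0.59, Itga6 and Trp63 of 0.58, and Itgb4 and Trp63 of 0.58. Within wild type (15 arrays) these were 0.77, 0.44 and 0.34, and within SR-A mutant (12 arrays) 0.38, 0.64 and 0.65. The arrays share their groups and their scaling, so these values are descriptions. The probe sets most like Itga6 over the 27 arrays were those of Sh3glb1, Adam10 and Ppp1cc, each with r of 0.87. For Itgb4 they were Pigr (0.81), Tapbp (0.79) and Ahnak (0.79), and for Trp63 both Igfbp3 probe sets (0.72 and 0.69) and Gng12 (0.69). These genes were picked for their likeness on the same arrays, so what they share with the 3 genes there is fixed by the choice and was not tested.

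The partners of α6β4 were read from a list of 23 genes of the hemidesmosome and its basement membrane anchor, of which 19 had a probe set and 15 were tested. By limma's adjusted p, 3 of 15 rose and 0 fell in wild type at 48 h (5 and 1 at an unadjusted p under 0.05), beside 8.17% of all tested genes that rose and 7.25% that fell; the median difference was 0.20, against -0.02 over all genes. The 3 were Plec, Lama5 and Cd151. In SR-A mutant at 48 h also 3 of 15 rose and 0 fell (4 and 0 unadjusted; 5.08% and 5.17% of all genes; median 0.21, against 0.02), namely Lama5, Lamb3 and Dag1, the last named after its values were seen. Wild type at 16 h had 2 of 15 up, Lama5 and Cd151, beside 3.54% of all genes, calls lost for 19 and 11 of the 30 arrays when left out (differences of 0.46 to 0.72 and 0.31 to 0.39), and the other 5 comparisons with 0 h had 0 calls and 1 to 3 genes at an unadjusted p under 0.05.

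Cd151 encodes the tetraspanin that binds α6 integrins. Its signals in wild type were 2864.6, 2556.3 and 2825.0 at 0 h and 3921.7, 3518.7 and 3746.2 at 48 h, with no overlap, a rise of 0.44 ± 0.11 (limma adjusted p = 0.00608) that held without any single array. Of its other tested probe sets 1 gave 0.64 ± 0.13 (adjusted p = 0.00167) and 1 gave -0.45 ± 0.25 (0.254), so its probe sets disagree. In SR-A mutant at 48 h the difference was -0.05 ± 0.11 (adjusted p = 0.848), from 0 h arrays of 3269.2, 3253.1 and 3780.6 that were above the wild type ones (0.32 ± 0.11, adjusted p = 0.0388; lost without any one of these 6 arrays). Lama5, a laminin chain that α6β4 binds, rose in wild type from 1193.6, 834.3 and 892.2 at 0 h to 1534.5, 1329.3 and 1497.0 at 48 h (0.59 ± 0.17, adjusted p = 0.0195; lost without 0 h replicate 2, 0.49, or 3, 0.54, or 48 h replicate 1, 0.55, or 3, 0.57). In SR-A mutant at 48 h it rose by 0.54 ± 0.17 (adjusted p = 0.0437; 0.37 to 0.74 without single arrays, and lost for 9 of the 30).

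Plec encodes plectin, which ties keratin filaments to β4. Its wild type signals were 629.8, 520.2 and 595.2 at 0 h and 752.5, 945.4 and 1450.5 at 48 h, a rise of 0.80 ± 0.27 (limma adjusted p = 0.0489). At 48 h it was lower in SR-A mutant, at 364.0, 685.8 and 775.0, by 0.81 ± 0.27 (adjusted p = 0.0452). Both calls were close to the threshold: the first was lost when any one of 21 of the 30 arrays was left out, with differences of 0.54 to 1.01 over all 30 such fits, and the second for 15 of the 30, with differences of -1.02 to -0.47. Lamb3, a chain of the laminin of epithelial anchorage, rose in SR-A mutant from 1100.4, 943.8 and 1287.7 at 0 h to 1271.2, 1944.3 and 2162.2 at 48 h (0.67 ± 0.21, adjusted p = 0.0494), where the arrays overlapped and the call was lost for 21 of the 30 arrays when left out, with differences of 0.51 to 0.90. In wild type at 48 h the Lamb3 difference was 0.45 ± 0.21 (adjusted p = 0.164).

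Between genotypes over all times, 3 of the 15 partner genes were higher in SR-A mutant and 2 lower, beside 14.1% and 20.2% of all genes. The higher ones were Hspg2 (0.26), Lamb1 (0.20) and Lamb2 (0.21), and the lower ones Col17a1 (-0.41 ± 0.14, adjusted p = 0.0285), the collagen of the hemidesmosome, and Itga3 (-0.25); these 5 were named after their values were seen. At 0 h 2 of the 15 were higher in SR-A mutant, Hspg2 (0.64) and Cd151 (0.32), and 0 lower, beside 7.47% and 9.93% of all genes. At 2 h 1 was higher, Lamb1 (0.55), and 1 lower, Itga3 (-0.60), beside 1.78% and 6.04%. At 8 h 0 were called. At 16 h 2 were lower, Col17a1 (-1.01 ± 0.32, limma adjusted p = 0.0495) and Col7a1 (-0.49 ± 0.15, 0.0393), both near the threshold. At 48 h 2 were lower, Plec and Col4a1. Beside these, 4.95% and 9.01% of all genes were lower at 16 and 48 h. Dst, the other plakin of the hemidesmosome, was not measured by a probe set of 1 gene.

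**Figure D3:**
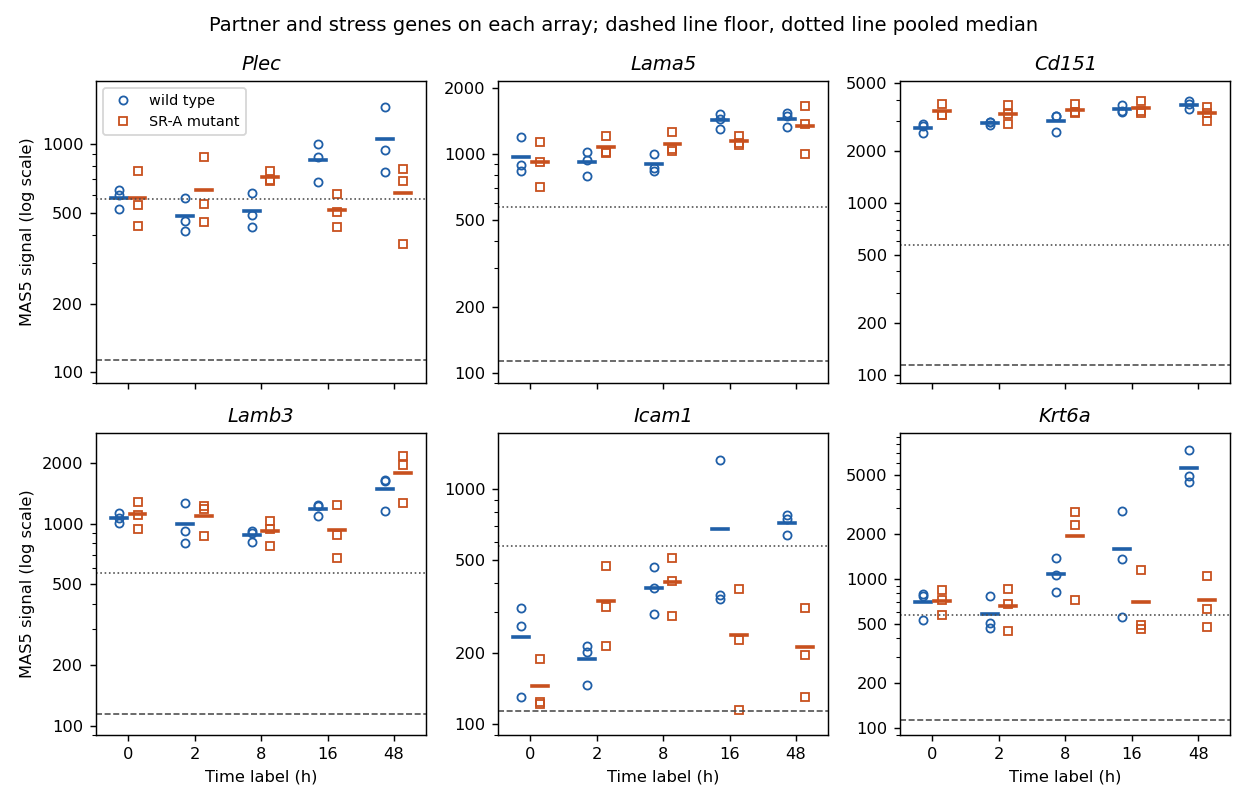
MAS5 signal (log axis, scaled for each gene) on each array for the hemidesmosome partners Plec, Lama5, Cd151 and Lamb3, the adhesion gene Icam1 and the stress keratin Krt6a, against the time label in hours, with wild type as circles, SR-A mutant as squares, and bars at group means of 3 arrays. The dashed line is the floor and the dotted line the pooled median; Krt6a reaches 4477.8 to 7311.5 in wild type at 48 h and stays between 477.4 and 1048.0 in SR-A mutant at 48 h.

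Other genes of horizontal basal cells and stratified basal layers were read from a list of 25, of which 16 were tested. In wild type 5 of 16 rose and 0 fell at 48 h (median 0.29, against -0.02 over all genes), and 3 rose at 16 h, beside 8.17% and 3.54% of all genes that rose. In SR-A mutant 2 rose and 2 fell at 2 h (7.6% and 8.93% of all genes), on the arrays with the high Gapdh ratios: Notch2 (0.50) and Pax6 (0.43) rose and Hes1 (-0.51) and Sdc1 (-0.75) fell. There 0 were called at 8 and 16 h, where 6 and 4 had an unadjusted p under 0.05, and 1 rose at 48 h (median 0.04), beside 5.08% of all genes. Icam1, an adhesion molecule of horizontal basal cells that endothelium also makes, rose in wild type from 311.2, 130.9 and 262.9 at 0 h to 636.5, 748.9 and 778.2 at 48 h, by 1.70 ± 0.46 (limma adjusted p = 0.0131). Without wild type 0 h replicate 2 this was 1.33 with adjusted p = 0.0884. At 48 h its SR-A mutant arrays gave 131.0, 313.0 and 197.8, all below the wild type ones (-1.84 ± 0.46, adjusted p = 0.00768).

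Sdc1, the epithelial syndecan, rose in wild type at 48 h by 0.94 ± 0.24 (limma adjusted p = 0.00865; 0.71 and 0.0617 without 48 h replicate 3). The transcription factor genes Sox2 and Pax6, which horizontal basal cells share with supporting cells and other progenitors, rose by 0.73 ± 0.19 (adjusted p = 0.00913; 0.60 and 0.0583 without 48 h replicate 2) and 0.75 ± 0.12 (adjusted p = 1.31e-04). Pax6 was also the 1 gene of the list that rose in SR-A mutant at 48 h, by 0.51 ± 0.12 (adjusted p = 0.00923). Perp, a desmosome-associated gene and the fifth to rise in wild type at 48 h, was named after its values were seen (0.72 ± 0.20, adjusted p = 0.0139). The list's genotype calls at 48 h were 3 lower and 0 higher, Icam1, Sfn and Cav1, beside 9.01% of all genes lower. Notch2, Hes1, Sfn and Cav1 were named after their values were seen.

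Among keratins outside the basal layer, Krt2, Krt6a, Krt6b, Krt7, Krt8 and Krt18 had calls. Krt1, Krt13, Krt16 and Krt20 failed the filter, Krt16 at or below the floor on all arrays. Krt4, Krt10 and Krt19 were tested and not called in any comparison with 0 h or between genotypes. Krt6a, a keratin of wounded and squamous epithelium, was at 792.9, 530.5 and 762.6 in wild type at 0 h and at 7311.5, 4477.8 and 4894.0 at 48 h, a 7.93-fold rise (2.99 ± 0.49, limma adjusted p = 1.90e-04). Its SR-A mutant arrays at 48 h, 477.4, 625.8 and 1048.0, overlapped their own 0 h arrays and were 8.00-fold lower than wild type (-3.00 ± 0.49, adjusted p = 2.21e-04). Its other probe set gave 3.51 and -3.25. Krt6b, its near-identical copy, has a probe set of its own, which was called in neither of these comparisons. It was lower in SR-A mutant at 0 h (-0.92 ± 0.23, adjusted p = 0.00923) and over all times (-0.42 ± 0.10, 0.0032). How far the probes of the pair share signal was not tested.

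Of the 12 tested genes of the squamous and cornified envelope list, 5 rose and 1 fell in wild type at 48 h, beside 8.17% and 7.25% of all genes. The 1 that fell was Krt2, a keratin of cornified epithelium (-0.51 ± 0.17, limma adjusted p = 0.0459). At 48 h 5 were lower in SR-A mutant than in wild type, beside 9.01% of all genes. In SR-A mutant 2 genes rose at 8 h and 1 at 16 h, beside 1.32% and 2.08% of all genes, and 0 were called at 48 h (1 at an unadjusted p under 0.05). Sprr1a, a precursor of the cornified envelope, rose there by 3.67 ± 0.49 at 8 h (limma adjusted p = 1.27e-04) and 1.94 ± 0.49 at 16 h (0.0283; 1.72 to 2.11 without single arrays and lost for 5 of them). In wild type it rose by 1.87 ± 0.49 at 48 h (limma adjusted p = 0.0113; 1.61 to 2.31 without single arrays and lost for 3 of them). Sprr2f, of the same family, rose in SR-A mutant by 2.72 ± 0.55 at 8 h (0.00743; 2.45 and 0.0601 without SR-A mutant 8 h replicate 1). In wild type it rose by 3.60 ± 0.55 at 48 h (8.38e-05). Sprr1a was higher in SR-A mutant than in wild type at 8 h (2.27 ± 0.49, limma adjusted p = 0.0132). That call was lost without wild type 8 h replicate 3 (1.46, 0.0938) or SR-A mutant 8 h replicate 2 (2.34, 0.0525). Both genes were lower in SR-A mutant at 48 h, Sprr2f with -4.37 and Sprr1a with -1.71, the second call lost for 3 arrays when left out. The 22 probe sets of the list summed to 37463 to 41258 in SR-A mutant at 8 h and 30871 to 47479 in wild type at 48 h, against 23965 to 25657 and 27352 to 27836 at 0 h of the same genotype.

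Among 4 tested simple epithelial keratins, made by supporting and gland cells, Krt7 (1.11 ± 0.26, limma adjusted p = 0.0053) and Krt18 (0.41 ± 0.11, adjusted p = 0.0134; lost without 0 h replicate 2, 0.37, or 48 h replicate 1, 0.33) rose in wild type at 48 h. Krt7 was also up there at 16 h (0.89 ± 0.26, adjusted p = 0.0427; 0.70 to 1.01 without single arrays and lost for 9 of them). In SR-A mutant Krt8 rose at 8 h (0.68 ± 0.14, adjusted p = 0.00743; 0.61 and 0.0601 without 8 h replicate 1) and at 16 h (0.48 ± 0.14, adjusted p = 0.0492; lost for 20 of the 30 arrays when left out, 0.42 to 0.54). Krt7 was higher in SR-A mutant than in wild type at 0 h (0.78 ± 0.26, adjusted p = 0.0415) and 2 h (0.90 ± 0.26, 0.0334), each call lost for 5 arrays. Over all times Krt8 (0.19 ± 0.06, adjusted p = 0.0213) and Krt18 (0.18 ± 0.05, 0.00601) were higher in it, calls lost with quantile normalization. Of the 4 genes 2 thus rose in wild type at 48 h and 1 at 16 h, beside 8.17% and 3.54% of all genes. In SR-A mutant 1 rose at 8 h and 1 at 16 h, beside 1.32% and 2.08%. Between genotypes 1 was higher at 0 h, 1 at 2 h and 2 over all times, beside 7.47%, 1.78% and 14.1%. In these comparisons 0 were called lower.

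In the desmosome, the junction between neighbouring epithelial cells, 8 genes were tested and limma called 0 in wild type or SR-A mutant at 48 h against 0 h (1 and 0 at an unadjusted p under 0.05). Beside these, 15.4% and 10.2% of all genes were called. Over all times 1 of the 8 was higher in SR-A mutant and 2 lower, beside 14.1% and 20.2% of all genes. Dsp, which encodes desmoplakin, was lower in SR-A mutant at 0 h by 0.53 ± 0.17 (limma adjusted p = 0.03; 0.35 to 0.75 lower without single arrays and lost for 4 of them). It was also lower at 16 h by 0.74 ± 0.17 (0.00936; 0.53 and 0.0706 without SR-A mutant 16 h replicate 2), at 48 h by 0.68 ± 0.17 (adjusted p = 0.00735) and over all times by 0.37 ± 0.08 (6.47e-04). At 2 h, on the arrays with the high Gapdh ratios, it was higher in SR-A mutant (0.59 ± 0.17, adjusted p = 0.0276; lost for 3 arrays, 0.51 to 0.66). On these arrays against 0 h, Dsp (0.66 ± 0.17, limma adjusted p = 0.00864) and Pkp4 (0.36 ± 0.09, 0.00873) rose. Jup, with the largest change of the list, fell there (-1.72 ± 0.41, 0.00566). Pkp2, which encodes a plakophilin of the same junction, was higher in SR-A mutant at 0 h (0.65 ± 0.16, adjusted p = 0.00742) and over all times (0.41 ± 0.07, 1.11e-04). It was also higher at 8 h (0.58 ± 0.16, 0.0454; lost for 18 arrays, 0.31 to 0.72) and 48 h (0.49 ± 0.16, 0.0354; lost for 4 arrays, 0.37 to 0.57). In wild type Pkp2 rose at 16 h against 0 h (0.57 ± 0.16, limma adjusted p = 0.0329), a call lost for 5 arrays when left out. Of the 8 genes, 1 was higher in SR-A mutant and 1 lower at 0 h (7.47% and 9.93% of all genes). The counts at 2 h were 1 and 1 (1.78% and 6.04%). At 8 h 1 was higher (1.3%), at 16 h 2 were lower (4.95%), and at 48 h 1 was higher and 2 lower (7.36% and 9.01%). Against 0 h, 2 rose and 1 fell in SR-A mutant at 2 h (7.6% and 8.93%), and 1 rose in wild type at 16 h (3.54%).

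Other cells of the tissue that make α6 were read from their markers. The 10 endothelial marker probe sets summed to 6812 to 7908 in wild type at 0 h and 8523 to 10205 at 48 h, without overlap. Of the 6 tested genes 1 rose, Cldn5, by 0.92 ± 0.22 (limma adjusted p = 0.00613), beside 8.17% of all genes. In SR-A mutant the 10 probe sets summed to 7184 to 8647 at 0 h. They summed to 7080 to 8381 at 16 h, within the wild type 16 h range of 7195 to 8623 but for the lowest array. At 48 h they summed to 7548 to 11671, which spans the wild type range. At 16 and 48 h 0 of the 6 genes were called between genotypes (0 and 1 at an unadjusted p under 0.05), beside 8.19% and 16.4% of all genes. At 0 h Cldn5 was higher in SR-A mutant (0.73 ± 0.22, limma adjusted p = 0.0256) and Pecam1 lower (-0.80 ± 0.28, 0.0471), beside 7.47% and 9.93%. These calls were lost for 4 and 18 of the 30 arrays when left out. Over all times 1 was lower in SR-A mutant, Pecam1, by 0.46 ± 0.12 (adjusted p = 0.00608), beside 20.2% of all genes. The 9 Schwann and ensheathing glia marker probe sets summed to 19638 to 21909 in wild type at 0 h and 12446 to 23495 at 48 h. In SR-A mutant they summed to 20119 to 22668 at 0 h and 21415 to 25524 at 48 h. In wild type at 48 h 0 of the 7 tested genes were called (1 at an unadjusted p under 0.05), beside 15.4% of all genes. In SR-A mutant at 48 h 2 of 7 rose (5 unadjusted), beside 5.08% of all genes. These were Sox10 (0.76 ± 0.16, limma adjusted p = 0.00368) and Npy (0.66 ± 0.19, 0.0322). Sox10 also rose there at 16 h (0.61 ± 0.16, limma adjusted p = 0.0311), and Pmp22 and S100b at 2 h, beside 2.08% and 7.6% of all genes. S100b was the 1 called between genotypes at 48 h, higher in SR-A mutant (0.69 ± 0.22, limma adjusted p = 0.0331), beside 7.36% of all genes.

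Markers of other cells also changed in wild type at 48 h, where Itga6 was highest. The 12 macrophage and neutrophil marker probe sets summed to 17918 to 24629 in wild type at 0 h, 41377 to 55038 in wild type at 48 h and 19036 to 29864 in SR-A mutant at 48 h. Of 8 tested genes 5 rose in wild type at 48 h and 3 were lower in SR-A mutant than in wild type then, beside 8.17% and 9.01% of all genes. In SR-A mutant 1 rose at 48 h, the macrophage gene Cd68 (0.64 ± 0.16, limma adjusted p = 0.0106), beside 5.08% of all genes. The 9 fibroblast and stromal marker probe sets summed to 95544 to 117483 in wild type at 0 h and 36301 to 50937 at 48 h. They summed to 121284 to 134043 in SR-A mutant at 0 h and 66940 to 101854 at 48 h. Of 7 tested genes 4 fell in wild type at 48 h (median -1.58; 7.25% of all genes fell), 4 fell in SR-A mutant at 48 h (median -0.92; 5.17%), and 4 were higher in SR-A mutant than in wild type at 48 h (7.36%). The 4 mature olfactory neuron marker probe sets summed to 45727 to 54826 in wild type at 0 h, 25687 to 30931 in wild type at 48 h and 28329 to 38371 in SR-A mutant at 48 h. Of the 4 genes 2 fell in wild type at 48 h and 1 in SR-A mutant, beside 7.25% and 5.17% of all genes. No marker of these 5 lists lay at or below the floor on all arrays. The list of globose basal cells, the other basal compartment, and neuronal progenitors had 10 tested genes. Of these 2 fell and 0 rose in wild type at 48 h, beside 7.25% and 8.17% of all genes. Over all times 5 were lower in SR-A mutant and 0 higher, beside 20.2% and 14.1%. The 3 supporting and gland cell marker probe sets summed to 42551 to 49642 in wild type at 48 h and 67907 to 77261 in SR-A mutant. Of these 3 genes 2 were higher in SR-A mutant than in wild type at 48 h, beside 7.36% of all genes. At 48 h against 0 h, 0 of 3 tested respiratory ciliated cell genes were called in wild type, beside 15.4% of all genes. In SR-A mutant 1 fell, beside 5.17%. The part of all these cells in the Itga6 differences was not tested.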

How the data were processed

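The authors deposited 1 linear intensity per probe set and array, and the submitters' processing notes name MAS5 without a version. That they scaled the arrays was read from the values, whose 2% trimmed mean was 1500.7 on the lowest and 1500.9 on the highest array. Of 12488 probe sets 66 were controls; 10833 had 1 gene, 396 several and 1193 none, and 10817 were matched by gene identifier to RefSeq names. The log2 signals of all 30 arrays went into a fit of group means with limma 3.58.1 (R 4.3.3). The floor and filter given above came first, and the filter kept 6968 probe sets and left out 5454. For lists, the brightest tested probe set stood for each of 5396 genes. The pipeline was tested on simulated data. The 6 genes, the lists and the rules were chosen with earlier results of these data known. The rule named all 6 genes, up to 4 genes a list, those called with the largest change in any comparison with 0 h or over all times, and the 3 probe sets with the highest r to each tested gene. Not every list gene that met it is printed above. Alternatives were quantile normalization, no filter, the replicate block, a pseudocount of 16 instead of a floor, a variance trend with robust moderation, only the groups compared, the SR-A mutant 2 h arrays left out or reduced to replicate 2, and each array left out in turn. The number of arrays limits the precision. Python 3.11.15 did the remaining steps.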

Additional observations from a re-analysis of the deposited data

Results flagged for a closer look

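The time course of Itga6 differed between wild type and SR-A mutant by a moderated F over the 4 differences of changes (limma adjusted p = 0.00319). This test called 14.7% of probe sets. The single differences of change did not pass the threshold at 2, 8, 16 or 48 h (limma adjusted p = 0.125, 0.944, 0.149 and 0.117). The group means were 660.5, 614.2, 678.8, 697.0 and 1012 in wild type and 524.9, 728.0, 507.8, 335.8 and 492.3 in SR-A mutant at 0, 2, 8, 16 and 48 h. The test stayed past the threshold without any single array, at an adjusted p of up to 0.0111, and with replicate 2 as the only SR-A mutant 2 h array (0.0179), but not without all 3 SR-A mutant 2 h arrays (0.0875). The part of the high Gapdh ratios of those arrays in the difference was not tested.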

How the results depend on the processing

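Itga6 was the 1 gene called between genotypes over all times, and it was called at 2 of 5 times, in every setting run and without any single array. In the fit of all 30 arrays 35.7% of probe sets were called over all times. With the 5 times pooled, 11.0% of all pairs of probe set and time were called. The 2 calls of the 6 genes against 0 h became 1 with no filter and 3 with the replicate number as a block, and ranged from 1 to 3 when one array was left out. These 2 calls came from 3 tested genes in 8 comparisons, where 6.87% of all pairs of probe set and comparison were called. The 1 call for a genotype difference of the change over time became 0 without the SR-A mutant 2 h arrays and stayed at 1 (1 to 1) without any single array. The 8 calls of the hemidesmosome list against 0 h came from 15 tested genes in 8 comparisons, where 6.94% of all pairs of gene and comparison were called. The calls of the list became 3 with no filter, 3 with the replicate block and 5 with only the groups compared, and ranged from 2 to 9 when one array was left out. They moved by over 1.5 times for 21 of the 30 arrays, that is for all but wild type 8 h replicates 1 to 3, SR-A mutant 0 h replicate 3, 2 h replicates 1 and 2, 16 h replicates 1 and 2 and 48 h replicate 1; the lowest, 2, came without wild type 16 h replicate 1 or 2 or SR-A mutant 16 h replicate 3. The cause was not tested. With all groups pooled, samples with the same replicate number did not deviate together on average (mean r of -0.01 over 135 pairs, against 0.00 over 270 other pairs). Single pairs with the same number ranged from -0.34 to 0.35. Pairing within a genotype or between some times was not tested. A fit of only the groups compared gives no value over all times or for the change over time. The 3 keratins are limited by their dim probe sets, and Itgb4 by the spread of its SR-A mutant arrays.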
